A study of Mus musculus with 2 samples.

Results

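The 9 transcription factors described here, Pax2, Pax8, Six2, Eya1, Sall1, Osr1, Wt1, Lhx1 and Cited1, were taken by symbol from a table of read counts over the exons of 30744 gene symbols. Each of the 9 had 1 gene model in the table. The table holds 2 total RNA libraries of mouse kidney, both of strain C57BL/6 x DBA/2 F1. The normal kidney library carries the genotype label WT and had no doxycycline, and the tumour library comes from a kidney tumour of a Tet-OSKM/mPer2-luc animal that received doxycycline. In such animals the reverse transactivator M2rtTA is made from the Rosa26 locus and switches on Oct4, Sox2, Klf4 and Myc when doxycycline is given. The allele mPer2-luc reports on the clock gene Per2 through luciferase. Per the labels' protocols the animals were chimeras of embryonic stem cells with these transgenes and host blastocysts, so a tissue sample can hold cells of either origin. That protocol stands with both libraries, and age, sex and the length of treatment are not given in the sources used here. With 1 library per group there is no replicate check, and every value below compares these 2 libraries and not the conditions.

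Nephron progenitors, the cap mesenchyme around the tips of the branching ureteric bud, either renew themselves or turn into the epithelium of the nephron. Osr1, Pax2, Pax8 and Lhx1 act first, in the intermediate mesoderm. Six2, with its coactivator Eya1 and with Sall1 and Cited1, marks the renewing pool, and Wt1 is needed for its survival. The pool is used up around birth in the mouse, while Pax8 and Pax2 stay on in tubule and collecting duct epithelium and Wt1 stays on in podocytes. Several of the factors also have known roles outside the kidney: Pax2, Pax8, Lhx1 and Eya1 act in the developing nervous system or ear, Sall1 is made in embryonic stem cells, and Wt1 and Osr1 are made in mesothelium and lateral mesoderm.

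Of the 9 factors, 4 exceeded 2-fold towards the tumour library with a counting interval excluding no difference (Eya1, Cited1, Wt1 and Sall1), 4 were lower by the same rule (Pax8, Lhx1, Pax2 and Osr1), and Six2 fell under the minimum of 20 reads over both libraries. Cited1, with 0 reads in the normal library, passed this minimum only through the tumour library, which fixed its direction. Among the 16326 symbols that reached this minimum, 31.2% were higher and 28.0% were lower by this rule, and the median log2 ratio was 0.08. Calls in both directions were thus common in the table as a whole, and their balance moved with the scaling, from 5099 higher and 4566 lower to 6876 and 3297 with plain CPM (reads scaled to equal library totals). Ratios are tumour over normal, from counts scaled with trimmed means (TMM), and their 95% intervals cover counting error only. In bulk RNA, fewer cells of a type and less RNA per cell cannot be told apart. The label of the set holds for its genes and not for a cell population: Six2 and Cited1, which define the renewing progenitor pool, both had 0 reads in the normal library.

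The reads behind these values were few. Totals per the file headers were 40408775 and 33169818 reads, of which 29258428 and 20836819 lay on exons, and the 9 factors took 3623 reads (0.0124% of exon reads) in the normal and 3702 reads (0.0178%) in the tumour library. Under other scalings the median log2 ratio of all measured symbols moved up by 0.56 with plain CPM, by 0.45 without mitochondrial models and Rn45s, by 0.35 with header totals and by 0.32 with RPKM plus 0.1. No factor changed direction under any of them. A scaling of the counts moves the median of all measured symbols by the same constant as each gene. Relative to that median, the log2 ratios were 4.47 for Eya1, 4.26 for Cited1, 1.63 for Wt1 and 1.02 for Sall1. They were -1.38 for Osr1, -1.39 for Pax2, -1.85 for Lhx1 and -2.84 for Pax8. RPKM plus 0.1 does not move all genes by 1 constant, and these values differed with it. The log2 ratio of Eya1 was then 2.899, and relative to the median it was 2.497. Cited1 stood at 3.918 relative to the median, and Sall1, which alone moved further from it, at 1.044.

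**Figure D1:**
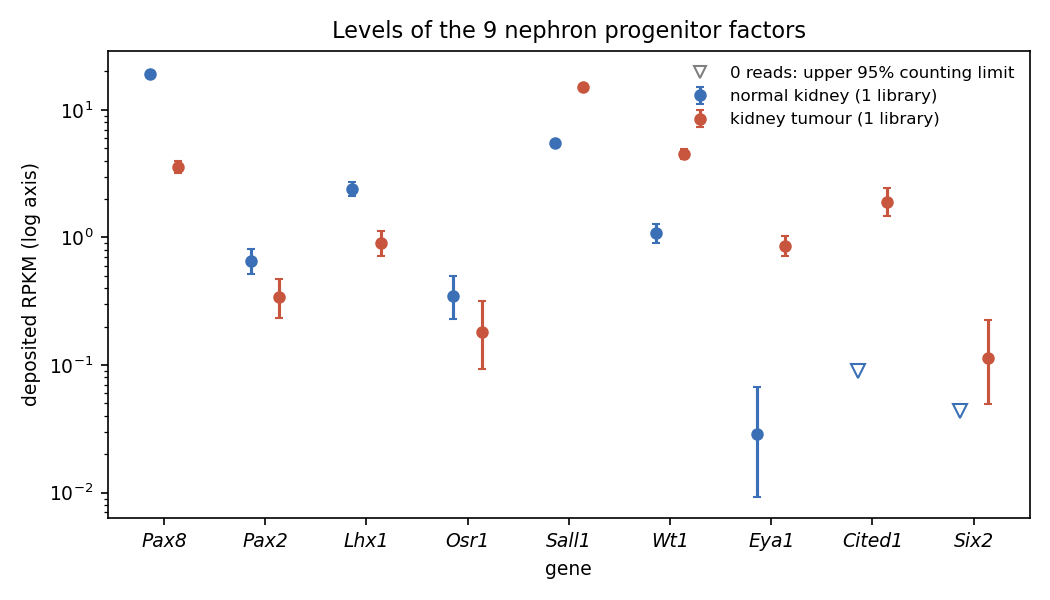
Deposited RPKM (reads scaled by transcript length and library total, log axis) of the 9 factors in the normal kidney (blue) and kidney tumour (red) library, 1 library each, with exact 95% counting intervals. Open triangles mark the upper limit for a gene with 0 reads. Pax8 was at 18.9 in the normal library against 3.57 in the tumour, and Cited1 and Six2 had reads in the tumour library only.

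Sequences just before the start sites of 3 factors are shown, those of Pax8 as the factor with the largest lower ratio, of Cited1 as the progenitor factor with 0 reads in the normal library, and of Lhx1 because its start faces that of the noncoding gene Lhx1os. They are RefSeq sequences of GRCm38.p6, the assembly also called mm10, in the direction of transcription of the factor. Capitals mark a match on either strand. The motif called GC box was searched as GGGCGG. The CCAAT box was searched by those 5 letters. The TATA box was searched as TATAAA. No marked motifs overlap each other.
Pax8, the 250 bases before the start, chr2:24475600-24475849, minus strand: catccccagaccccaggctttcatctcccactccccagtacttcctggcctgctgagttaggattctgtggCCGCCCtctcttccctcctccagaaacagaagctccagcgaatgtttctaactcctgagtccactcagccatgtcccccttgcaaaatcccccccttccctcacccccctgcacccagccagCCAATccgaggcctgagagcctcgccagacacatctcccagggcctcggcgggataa
Cited1, the 250 bases before the start, chrX:102250777-102251026, minus strand: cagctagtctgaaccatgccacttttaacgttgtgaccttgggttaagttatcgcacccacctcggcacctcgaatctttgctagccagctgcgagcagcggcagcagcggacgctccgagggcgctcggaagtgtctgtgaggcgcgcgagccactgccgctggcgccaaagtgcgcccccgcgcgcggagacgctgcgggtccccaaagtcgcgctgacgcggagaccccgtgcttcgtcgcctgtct
Lhx1, the 125 bases between its start and that of Lhx1os, chr11:84525535-84525659, minus strand: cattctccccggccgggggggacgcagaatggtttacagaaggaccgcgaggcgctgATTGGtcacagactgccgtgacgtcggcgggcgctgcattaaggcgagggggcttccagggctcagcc

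The 3 stretches differed in their CpG content. The Pax8 stretch held 6 CpG dinucleotides in 250 bases, the median of the 32817 windows in the RefSeq table, with 1 GC box and 1 CCAAT box. The Cited1 stretch held 30 CpG, more than 94.1% of all windows, and none of the 3 motifs. In the Six2 and Sall1 windows, which are not printed, 26 and 13 CpG were found. The Lhx1 stretch held 12 CpG in 125 bases, more than 81.7% of windows of that length, and 1 CCAAT box read on the other strand. A GC box was present in 32.7%, a CCAAT box in 33.8% and a TATA box in 12.4% of all windows of 250 bases, and in 26.9%, 21.8% and 6.55% of those of 125 bases. A motif match describes these letters only. RefSeq windows were matched for 6 of the 9 factors, and for 5 of them a window began at the start of the deposited model.

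Both paired-box factors of the set were lower in the tumour library. Pax8 (model uc008ipb.2, chromosome 2, 24420551 to 24475599, minus strand), which is made throughout the renal tubule, had 1954 reads (18.9 RPKM) in the normal and 303 reads (3.57 RPKM) in the tumour library and was 6.76-fold lower (interval 5.99 to 7.65). Pax2 (uc008hqa.2, chromosome 19, 44757394 to 44837869, plus strand), which persists in collecting duct, had 80 reads (0.656 RPKM) and 34 reads (0.340 RPKM) and was 2.47-fold lower (1.63 to 3.80). Pax2 was under 2-fold with all scalings other than TMM and DESeq2 size factors, with log2 ratios between -0.95 and -0.74. The ratio of Pax2 to Pax8 within a library, which no scaling affects, was 0.0347 in the normal library against 0.0951 in the tumour, a 2.74-fold shift towards Pax2 (1.74 to 4.22). Pax8 stood above Pax2 in both libraries, 28.8-fold and 10.5-fold per length.

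Markers of the epithelia that use these factors were lower by far more. All 8 proximal tubule markers and all 8 distal nephron markers were lower, as were 28.0% of all measured symbols. The median log2 ratios of the 2 lists were -7.64 and -6.87. Their summed levels, normal against tumour, were 2554 RPKM against 50.1 RPKM and 1613 RPKM against 14.6 RPKM. The phosphate carrier Slc34a1, the glucose carrier Slc5a2 and the anion transporter Slc22a6 had log2 ratios of -10.61, -9.36 and -9.14, and Calb1, the urinary protein uromodulin (Umod) and the salt carrier Slc12a1 had -7.72, -7.38 and -7.05. The defining marker listed at 0 in the tumour library was Pvalb, of the distal convoluted tubule. Relative to Umod and Lrp2 for Pax8 and to Aqp2 for Pax2, both factors stood higher within the tumour than within the normal library. The level of Pax8 was 0.0190 of that of Umod in the normal library against 0.467 in the tumour, a 24.6-fold shift (21.2 to 28.4). Against Lrp2, the endocytic receptor megalin of the proximal tubule, the values were 0.0430 and 0.118, a 2.75-fold shift (2.43 to 3.11). Pax2 over the water channel Aqp2 of the collecting duct went from 0.0233 to 0.398, a 17.1-fold shift (9.86 to 29.2). Pax2 did not stand higher against every ureteric bud and collecting duct marker, since Krt8, Krt18, Ret and Wnt11 had larger tumour over normal ratios than Pax2, with log2 ratios of -0.67, 2.48, 4.32 and 2.89. These pairs with Umod, Lrp2 and Aqp2 were chosen after the values had been seen, and the part that tubule content plays in the lower Pax8 and Pax2 was not tested.

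Lhx1, a LIM homeobox factor of the intermediate mesoderm and of the early nephron, and the noncoding gene that faces it were both lower. Lhx1 (uc007kqo.1, chromosome 11, 84519379 to 84525534, minus strand) had 266 reads (2.40 RPKM) in the normal and 82 reads (0.901 RPKM) in the tumour library and was 3.40-fold lower (2.65 to 4.41). Lhx1os (chromosome 11, 84525660 to 84535831, plus strand) starts 125 bases away, across the stretch printed above, and does not overlap it. Its reads went from 266 to 13, and it was 21.4-fold lower (12.3 to 40.8). The ratio of Lhx1 to Lhx1os per length went from 0.226 to 1.42, a 6.31-fold shift (3.38 to 12.6) in a pair chosen after its values were seen. Aatf, the gene on the other side of Lhx1 at a distance of 5877 bases, had 815 and 1476 reads and a log2 ratio of 0.79.

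Osr1, a zinc finger factor that marks the earliest intermediate mesoderm, was scarce in both libraries. Osr1 (uc007nao.2, chromosome 12, 9574442 to 9581500, plus strand) had 28 reads (0.345 RPKM) in the normal and 12 reads (0.180 RPKM) in the tumour library. Its ratio was 2.45-fold lower with a wide interval (1.20 to 5.28), and it was under 2-fold with plain CPM, header totals, RPKM plus 0.1 and without mitochondrial models and Rn45s, with log2 ratios between -0.94 and -0.67. Its paralog Osr2 had 81 and 9 reads and was 9.43-fold lower (4.73 to 21.4), so that the level of Osr1 over that of Osr2 moved from 0.294 to 1.13, a 3.86-fold shift (1.32 to 11.5).

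Sall1, a zinc finger factor that recruits the NuRD deacetylase complex and keeps progenitors renewing, was the most abundant of the 9 in the tumour library. Sall1 (uc009msa.3, chromosome 8, 89027243 to 89044162, minus strand) had 1155 reads (5.44 RPKM) in the normal and 2612 reads (15.0 RPKM) in the tumour library and was 2.16-fold higher (2.01 to 2.31). All 4 members of its family were higher, as were 31.2% of all measured symbols. Sall2 was 2.80-fold higher (2.62 to 3.0005) and Sall3 was 2.46-fold higher (1.99 to 3.06). Sall4, a factor of embryonic stem cells, went from 0 to 5786 reads, 1840-fold higher against a floor of 3 reads, with a lower counting limit of 1496. It passed the minimum of reads only through the tumour library, which fixed its direction. Summed over the family, the level went from 11.7 RPKM to 71.7 RPKM, while the share of Sall1 in that sum went from 46.4% to 20.9%. Sall4 took 48.0% of it in the tumour and stood 2.30-fold above Sall1 there.

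Wt1, a zinc finger factor of nephron progenitors and podocytes named for Wilms tumour, was higher in the tumour library while most podocyte genes were not. Wt1 (uc008lko.2, chromosome 2, 105126529 to 105173614, plus strand) had 135 reads (1.08 RPKM) in the normal and 464 reads (4.54 RPKM) in the tumour library and was 3.28-fold higher (2.70 to 4.002). Of 11 podocyte markers, 2 were higher and 5 lower, beside 31.2% higher and 28.0% lower among all measured symbols. Their median log2 ratio was -0.51 (0.045 with plain CPM) and the summed levels were 83.7 RPKM and 68.2 RPKM. The intracellular channel protein Clic5 and the factors Tcf21 and Foxc2 had log2 ratios of -4.14, -3.60 and -2.16. The 2 higher markers, Kirrel and Plce1, had log2 ratios of 1.53 and 1.38, close to the 1.71 of Wt1, so Wt1 did not stand apart from every podocyte marker. Nphs1, which encodes nephrin, had 857 and 883 reads and a log2 ratio of -0.02. The level of Wt1 over that of Nphs1 went from 0.288 to 0.960, a 3.34-fold shift (2.68 to 4.16), and over Podxl, the podocyte surface sialomucin podocalyxin, from 0.0422 to 0.198, a 4.68-fold shift (3.84 to 5.73). Of 7 measured gonad and mesothelium markers 6 were higher, beside 31.2% of all measured symbols. Among them Lrrn4, Dmrt1 and Gata4 went from 0 to 467, 455 and 244 reads and passed the minimum only through the tumour library, which fixed their direction. The mesothelium marker Upk3b went the other way, with 22 and 4 reads, and was 5.77-fold lower (1.96 to 23.01). The summed level of that list was 1.08 RPKM and 21.4 RPKM, and its part in the higher Wt1 was not tested.

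The opposite-strand neighbour Wt1os (chromosome 2, 105076538 to 105126510, minus strand), whose start lies 18 bases from that of Wt1, had 20 and 37 reads, a ratio of 1.76 with an interval across no difference (0.998 to 3.21). On the other side Them7, a coding model 50727 bases downstream of Wt1, went from 4042 to 49 reads and was 86.5-fold lower (65.3 to 117).

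Of the factors that mark the renewing pool beside Sall1, Eya1 and Cited1 were higher in the tumour library and Six2 was close to absent. Eya1 (uc007aix.1, chromosome 1, 14168958 to 14310199, minus strand), a phosphatase and coactivator that works with Six2, had 5 reads (0.0287 RPKM) in the normal and 123 reads (0.860 RPKM) in the tumour library and was 23.5-fold higher (9.79 to 73.6). Cited1 (uc033jrp.1, chromosome X, 102247378 to 102250776, minus strand), a coactivator that binds the acetyltransferases CBP and p300, had 0 reads and 64 reads (1.90 RPKM). With a floor of 3 reads for the normal library it was 20.4-fold higher, and the lower limit of its counting interval was 16.1. Six2 (uc008duc.2, chromosome 17, 85684268 to 85688254, minus strand), the homeobox factor that holds progenitors in the renewing state, had 0 reads and 8 reads (0.115 RPKM). Against the same floor Six2 was 2.54-fold higher, with a lower limit of 1.63, on a total under the minimum of 20 reads. In the normal library 0 reads allow up to 0.0433 RPKM for Six2 and 0.0898 RPKM for Cited1.

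Six2 had the lowest level of these factors in the tumour library. The level of Eya1 was 7.51-fold and that of Cited1 16.6-fold above Six2 there. Eya1 took 7.07% of the summed Eya level in the tumour against 0.562% in the normal library, and over Eya2, which had 36 and 35 reads, it went from 0.0787 to 1.99, a 25.3-fold shift (8.81 to 87.1). Most Eya reads belonged to the broadly expressed Eya3, with 88.8% and 82.9% of the family level. Cited1 made up 26.9% of the Cited level in the tumour library, beside Cited2 with 359 and 323 reads and Cited4 with 52 and 9 reads.

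The order of the 9 factors by level was not the same in both libraries. In the normal one it ran Pax8, Sall1, Lhx1, Wt1, Pax2, Osr1, Eya1, then Cited1 and Six2 with no reads, and neighbours down to Eya1 were separated by their counting intervals. In the tumour it ran Sall1, Wt1, Pax8, Cited1, Lhx1, Eya1, Pax2, Osr1 and Six2, where Lhx1 and Eya1, Pax2 and Osr1, and Osr1 and Six2 were not separated. Pax8 lay at percentile 84.7 of the measured symbols in the normal and at 45.6 in the tumour library, Sall1 at 58.7 and 79.1, Wt1 at 30.8 and 51.0, and Pax2 at 25.3 and 10.9.

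**Figure D2:**
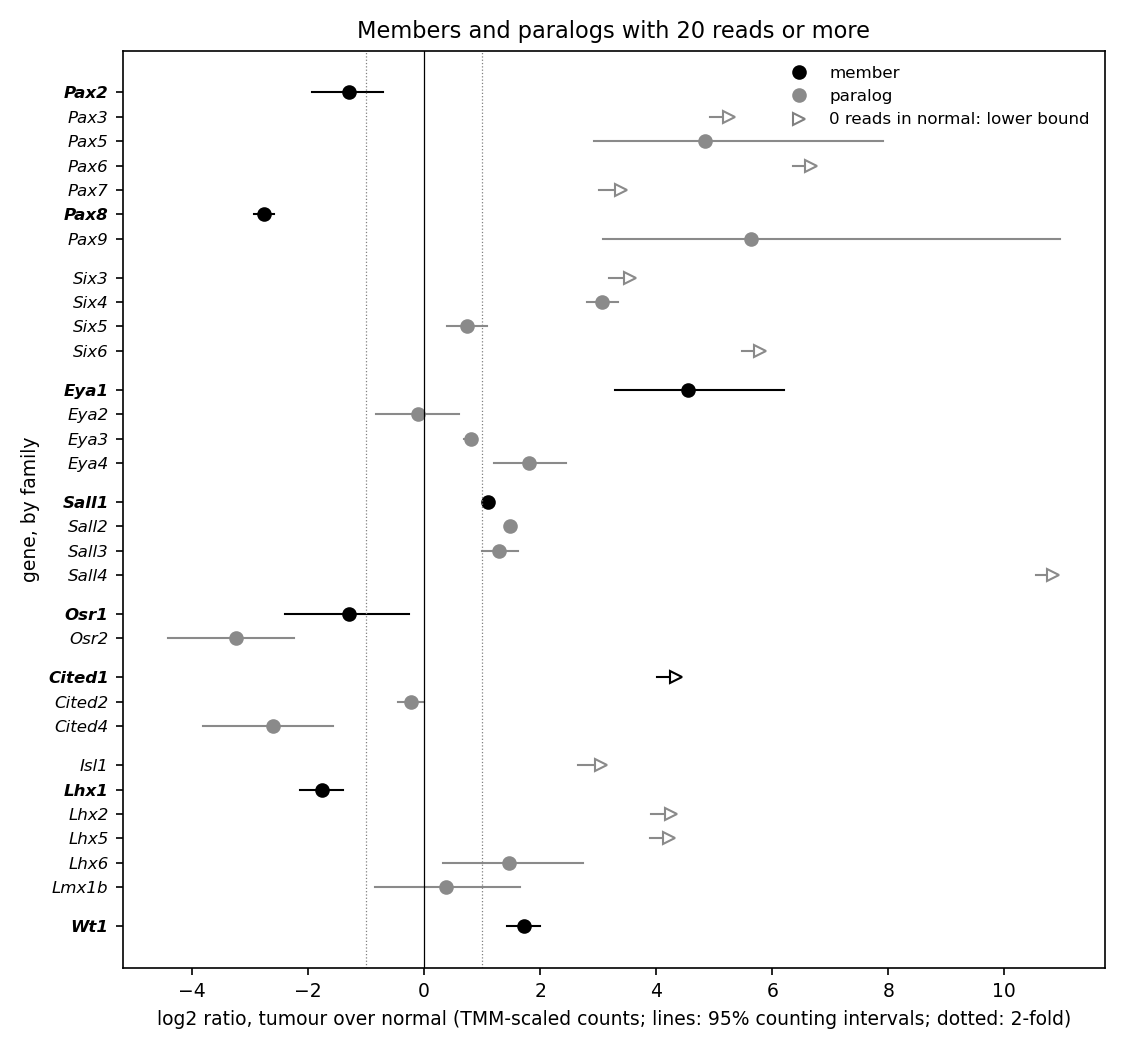
Log2 ratio, tumour over normal, of the factors (black) and their paralogs (grey) with at least 20 reads, by family. Lines are 95% counting intervals, dotted lines mark 2-fold, and open triangles are lower bounds for genes with 0 reads in the normal library. Sall4, Pax6 and Six6, with 0 reads in the normal library, lie far to the right, and the factors Pax8, Pax2, Lhx1 and Osr1 and the paralogs Osr2 and Cited4 lie to the left of -1.

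Paralogs of the factors were mostly higher in the tumour library. Of 31 paralogs, 23 reached 20 reads, and 16 of these were higher and 2 lower, with a median log2 ratio of 3.05. The shares over all measured symbols were 31.2% higher and 28.0% lower. With a minimum of 100 reads, 8 paralogs were higher and 0 lower, with a median of 1.80. Among the 23, 9 had 0 reads in the normal library and passed the minimum only through the tumour library, so their direction was fixed by the filter. In the Pax family Pax6, a factor of the eye and forebrain, went from 0 to 320 reads, 102-fold higher against the floor of 3 reads (lower limit 82.3). Pax3, of neural crest and muscle precursors, went from 0 to 120 reads, 38.2-fold higher against that floor (lower limit 30.6). Pax5 had 2 and 60 reads and Pax9 had 1 and 52 reads. Pax8 thus made up 96.4% of the summed Pax level in the normal library against 32.1% in the tumour, where Pax6 made up 33.5%. Among Six2 to Six6, Six4, with 129 and 1135 reads, was 8.39-fold higher (6.99 to 10.2). Six6, a factor of the eye, went from 0 to 175 reads, 55.6-fold higher against the floor (lower limit 44.8). Six2 made up 1.15% of the summed level of these 5 genes in the tumour and Six4 61.6%. The LIM factors Lhx2 and Lhx5, of the forebrain, had 0 reads in the normal library and 60 and 59 in the tumour, and Lhx1 stood 1.38-fold above Lhx5 there. Six5 and Eya3 had log2 ratios of 0.73 and 0.80, under 2-fold, and Eya4 was 3.49-fold higher (2.29 to 5.46).

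**Figure D3:**
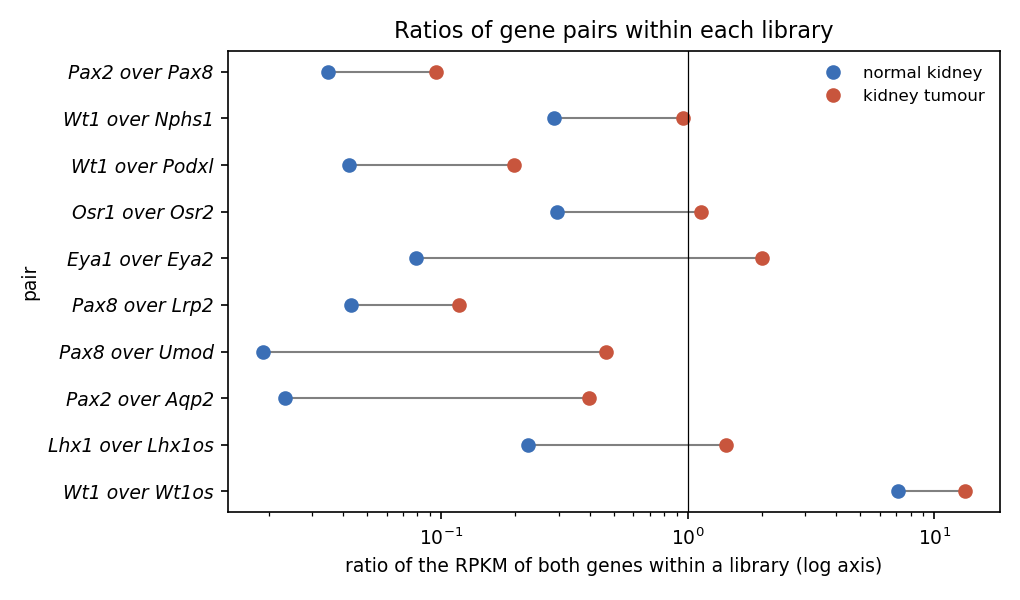
Ratio of the levels (RPKM) of pairs of genes within the normal (blue) and the tumour (red) library, on a log axis. A ratio within a library does not depend on how libraries are scaled. Each pair with reads of both genes in both libraries moved to the right, by between 1.86-fold for Wt1 over Wt1os, whose interval included no shift, and 25.3-fold for Eya1 over Eya2. Of these pairs 5 were chosen after their values were seen (Pax8 with Lrp2 and Umod, Pax2 with Aqp2, Lhx1 with Lhx1os and Wt1 with Wt1os). The shared direction is therefore partly a matter of choice.

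Other genes of the cap mesenchyme were called in both directions, as were all measured symbols, with 31.2% higher and 28.0% lower. Of 19 further cap mesenchyme genes 15 were measured, with 5 higher, 7 lower, 3 neither and a median log2 ratio of -0.96. The split depended on the scaling, with 5 higher and 3 lower and a median of -0.40 with plain CPM. Tmem100, a membrane protein, was 26.5-fold higher (11.1 to 82.96) with 5 and 139 reads, and the proteoglycan Spock2 was 18.02-fold higher (12.2 to 27.9) with 26 and 491 reads. Rspo1, a secreted activator of Wnt signalling, had 4 and 69 reads and was 16.5-fold higher (6.14 to 62.1). Named after their values were seen, Bmp7, the survival signal of the progenitors, was 6.57-fold lower (5.56 to 7.81) with 1016 and 162 reads, and Gdnf, the signal from progenitors to the ureteric bud, had 5 and 13 reads, under the minimum. Of 18 genes of the early nephron, from the renal vesicle to the S-shaped body, 7 were higher and 6 lower, and the median of the 18 was 0.07. Beside the shares among all measured symbols, these counts show nothing particular to early nephron genes. The Wnt effector Lef1 had 6 and 683 reads and was 109-fold higher (49.6 to 297). The growth factor Fgf8 went from 0 to 341 reads, 108-fold higher against the floor of 3 reads (lower limit 87.7). Papss2, an enzyme of sulphate activation, had 11368 and 160 reads and was 74.5-fold lower (63.7 to 87.6). Lef1 and Fgf8 are also made in gastrulating and neural embryo tissue, which these libraries do not separate from early nephrons.

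**Figure D4:**
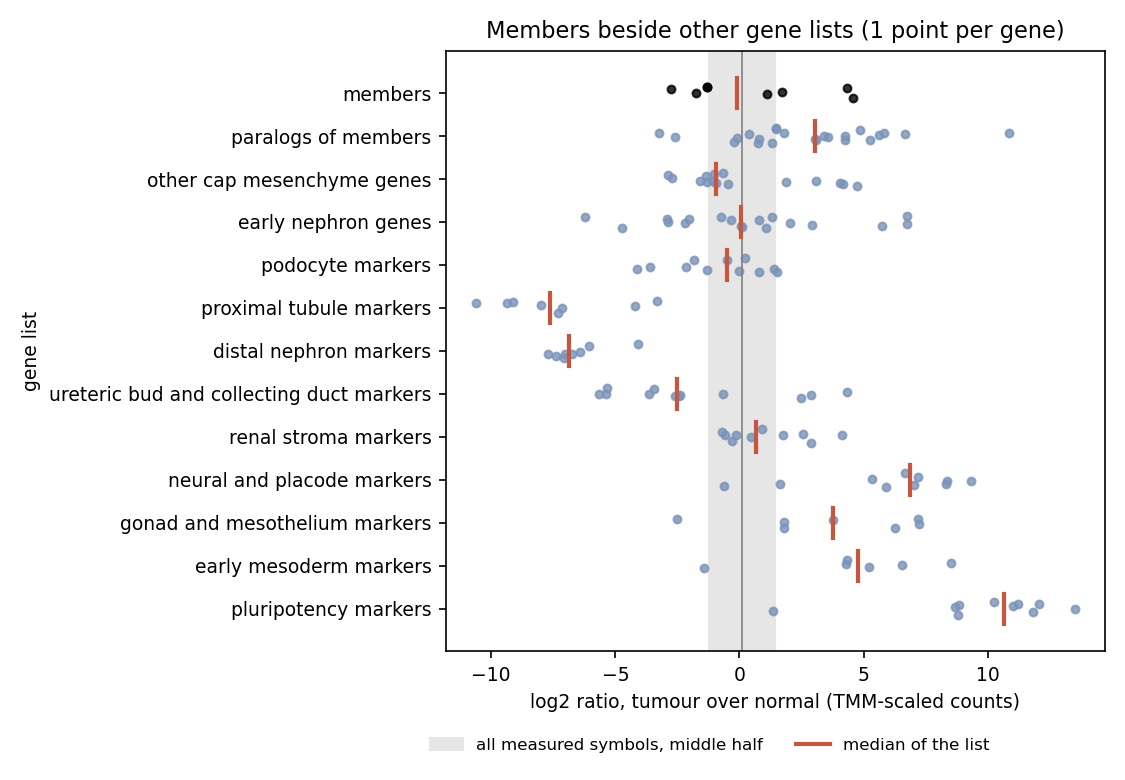
Log2 ratio, tumour over normal, of each measured gene in the set of factors (black) and in 12 other lists (blue), with list medians in red. The grey band spans the first to the third quartile of all measured symbols, from -1.21 to 1.43, and the grey line is their median of 0.08. The factors and the cap mesenchyme and early nephron genes spread to both sides, tubule markers lie left and pluripotency markers right, and neural and mesoderm markers lie mostly right, with Neurog2 and Foxc1 left of 0.

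Markers of the ureteric bud and collecting duct, the other epithelial lineage of the kidney, were mostly lower, with 3 of 12 higher, 8 lower and 1 under 2-fold, around a median of -2.51. All measured symbols had 31.2% higher and 28.0% lower. Scnn1g, Aqp2 and Avpr2, of the principal cells, had log2 ratios of -5.67, -5.39 and -5.32. Markers of tissues outside the kidney that also use factors of these families were higher in the tumour library. In the neural and placode list 10 of 14 genes were measured, of which 9 were higher and none lower, with a median of 6.85 and summed levels of 4.85 RPKM and 80.3 RPKM. Otx2, of the forebrain and epiblast, had 0 and 2039 reads, the neuronal tubulin Tubb3 0 and 1038 reads, and Dcx, of migrating neurons, 1 and 330 reads. Since 6 of those measured were at 0 in the normal kidney and passed the minimum only through the tumour, the filter fixed their direction. Of the 9 genes of that list at 0 in the normal library none was at 0 in the tumour library. In the early mesoderm list 6 of 12 genes were measured, with 5 higher and 1 lower, a median of 4.77 and summed levels of 1.45 RPKM and 17.2 RPKM. T, also known as Brachyury, had 1 and 385 reads, Eomes 5 and 495 reads and the somite factor Tcf15 4 and 155 reads, while Mesp1 and Msgn1 were at 0 in both libraries. The lower one was Foxc1, with 177 and 69 reads, and 2 of the measured genes passed only through the tumour library. All 10 pluripotency markers were higher, with a median of 10.63 and summed levels of 3.78 RPKM and 980 RPKM, led by Lin28a, Nanog and Pou5f1 with log2 ratios of 13.50, 12.07 and 11.82, and 7 of the 10 had 0 reads in the normal library, so that the filter fixed their direction and their ratios are lower bounds. Pou5f1 (Oct4) and Sox2, at 254 RPKM and 46.9 RPKM in the tumour library, are also among the factors switched on by doxycycline. The split of their reads between transgene and endogenous gene was not tested, and both genes enter the median and the summed level. Eya1, Cited1, Sall1 and Wt1 were called higher as well, as were 31.2% of all measured symbols. With 1 ratio per gene, a shared direction shows no link. The part of these lists in the higher values of these factors was not tested.

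Genes beside the factors on the chromosome were called in either direction. Of 21 models that neighbour or overlap a factor, 13 reached 20 reads, and 3 of these were called in the same direction as the factor, beside 31.2% higher and 28.0% lower among all measured symbols, so the count shows nothing particular to neighbours. These were Lhx1os, Msc, a muscle factor 443146 bases from Eya1 with 0 and 103 reads, and the ribosomal protein gene Rps4x, 59006 bases from Cited1 with 5897 and 25995 reads. Msc passed the minimum only through the tumour library, which fixed its direction. Around Pax8, which was lower, the neighbours Psd4 and Cacna1b were higher, with 66 and 228 reads and with 1 and 356 reads. Beside Six2, its paralog Six3, 58076 bases away, had 0 and 37 reads. Six3 and Srbd1, the neighbours of Six2, are among the 13 but could not be called the same way, since Six2 had no call. The antisense model AK037056 within Pax8 had 1 read and 0 reads, and the models inside Pax2 had at most 1 read.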

How the data were processed

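Raw counts of reads over exons of UCSC knownCanonical gene models were deposited by the authors, with RPKM values that, per the file headers, are scaled to the header totals. RPKM equalled count over transcript length and header total within 1.8e-06. Tools named in the submitters' processing notes are HOMER, STAR 2.5.0c and bcl2fastq, with the build mm10. Per the labels' protocols, stranded libraries were made from 0.25 μg of total RNA after removal of ribosomal RNA. The strand setting of counting and the treatment of multiply mapped reads are not given in the sources used here.

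For symbols with several models (708), the model with most reads was kept. TMM factors of 0.824 and 1.21 (edgeR 4.0.16, R 4.3.3) scaled the counts, and the ratio, tumour over normal, got an exact conditional (Clopper-Pearson) 95% interval. Levels got exact Poisson intervals. A gene was called at 2-fold with an interval excluding 1 and 20 reads or more. A count of 0 was set to a floor of 3 reads per library, equal to 0.124 CPM and 0.119 CPM. With 1 library per group no p-value was computed. Intervals cover counting error only, and PCR copies were not told apart. The calls were tested on simulated counts with counting error only, so that test does not cover spread between animals or libraries. Python 3.11.15, numpy 2.4.6, pandas 2.3.3, scipy 1.17.1 and matplotlib 3.10.9 were used.

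The factors and the 13 other lists (185 entries, 184 found) were chosen with earlier results of these data known. Named are all 9 factors, each paralog with a mean of at least 1 CPM, the 3 genes with the largest absolute log2 ratio in each other list at that level, the genes of 9 set pairs, and neighbours. Further genes named, and 5 further pairs, were chosen after their values were seen. A few genes of the lists and pairs are not reported here, and the list values leave them out. All 9 deposited models overlapped the gene of that symbol in GENCODE M21 on the same strand.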

Additional observations from a re-analysis of the deposited data

How the results depend on the processing

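The 4 higher calls among the factors held under every scaling tried (DESeq2 1.42.0 size factors, plain CPM, header totals, totals without mitochondrial models and Rn45s, and RPKM plus 0.1). For Cited1, with 0 reads in the normal library, the minimum fixed the direction under each of them. The count of lower calls was 4 with TMM and DESeq2 size factors and 2 under each of the other scalings, where Pax2 and Osr1 were under 2-fold. At a threshold of 4-fold, 2 factors were higher (Eya1 and Cited1) and 1 lower (Pax8), against 3023 and 2573 of all measured symbols. With a minimum of 100 reads, 3 factors were higher and 3 lower, since Cited1 and Osr1 were no longer measured, and with no minimum above 1 read Six2 joined the higher ones. No log2 ratio of a factor changed sign. Of the 13 lists, 8 had a median above 0 under each alternative but plain CPM, where the podocyte markers made it 9. Ordering by reads in place of RPKM moved 2 of the 18 places, those of Cited1 and Eya1 in the tumour library. Depth limits Osr1 (28 and 12 reads), Six2 (0 and 8 reads), Cited1 (0 reads in the normal library) and Eya1 (5 reads there). No paired analysis was possible because each group holds 1 library.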

Other observations

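Cofactors through which the factors act were measured for 20 of 20 genes, with 11 higher in the tumour library and 1 lower (17 and 0 with plain CPM, 5 and 0 at 4-fold), and the median log2 ratio was 1.15. Of the 16326 measured symbols, 31.2% were higher and 28.0% lower. Their counts were 6876 and 3297 with plain CPM, and 3023 and 2573 at 4-fold. Basp1, a corepressor of Wt1 that is also abundant in neurons, had 26 and 2448 reads and was 89.8-fold higher (61.1 to 138). Of the NuRD complex that Sall1 recruits, Mta1 was 4.97-fold higher (4.41 to 5.62) and the deacetylase Hdac1 4.49-fold higher (4.11 to 4.90). Named after their values were seen, Hdac2 was 2.49-fold higher (2.34 to 2.64) and the remodeller Chd4 2.27-fold higher (2.22 to 2.33). The LIM-binding factor Ldb2 was the lower member, 2.74-fold (2.20 to 3.43), with 298 and 114 reads, while Ldb1, which bridges Lhx1 complexes, was 2.23-fold higher (2.07 to 2.41).

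Of 11 renal stroma markers found, 10 were measured, with 4 higher and none lower, and the median log2 ratio was 0.68. Over all measured symbols the shares were 31.2% higher and 28.0% lower. Pdgfra, Dcn and Pdgfrb had log2 ratios of -0.69, -0.57 and -0.30, under 2-fold. The fibrillar collagens Col1a1 and Col3a1 were higher by 17.5-fold (15.4 to 20.02) and 7.33-fold (6.95 to 7.73), and the proteoglycan Lum 5.91-fold higher (3.41 to 10.99). Foxd1, the factor that defines the stromal progenitors beside the cap mesenchyme, had 17 and 16 reads and a log2 ratio of -0.16.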
